A study of Mus musculus with 11 samples.

Results

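The 10 genes described here encode receptors and soluble bridging proteins with which phagocytes take up apoptotic cells, a process called efferocytosis. They are Mertk, Axl, Tyro3, Gas6, Pros1, Mfge8, Stab1, Cd36, Lrp1 and Msr1. The list was written from the known roles of the genes, with earlier results of these data already known. Its symbols were matched to the Ensembl identifiers of the count files. All 10 were found among the 25006 genes counted, and all 10 were among the 14779 genes that passed the filter on low counts. RNA came from the left ventricle of 11 mice, with 1 stranded mRNA library per mouse. For the myocardial infarction (MI) groups the infarcted part of the ventricle was taken 9 days after permanent ligation of the left anterior descending coronary artery, and for the naive groups a matching piece of unoperated ventricle. The study's methods give 9 days, whereas its results text gives 1 week. The groups were naive control hearts (n = 2, mice M44 and M45), naive Vegfc-deficient hearts (n = 3, M149, M150 and M34), MI control hearts (n = 3, M006, M38 and M40) and MI Vegfc-deficient hearts (n = 3, M35, M900 and M913). Levels were taken as counts-per-million (CPM) scaled by the trimmed mean of M values (TMM), which corrects for differences in library composition.

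Vegfc-deficient hearts came from Vegfc fl/fl ; LysMCre mice, in which Cre is made from the Lyz2 locus of myeloid cells, neutrophils as well as macrophages, so other cells of the heart keep Vegfc. The genotype label gives the control mice as Vegfc fl/fl without LysMCre, whereas the labels' protocol and the study's methods give them as LysMCre mice and a legend of the study as C57BL/6 or Vegfc fl/fl mice. Ages of the sequenced mice were not given in the sources used here. The targeted gene was at 25.1 and 34.7 CPM in naive control hearts, 27.5, 34.5 and 30.6 CPM in naive Vegfc-deficient hearts, 45.5, 21.9 and 25.8 CPM in MI control hearts and 29.4, 25.3 and 22.5 CPM in MI Vegfc-deficient hearts. In tissue RNA Vegfc overlapped between the genotypes in both states. Lyz2, the locus that carries Cre, was at 2121 to 5380 CPM in the 5 control libraries and at 12.4 to 1392 CPM in 5 of the 6 Vegfc-deficient ones. M149, labelled naive and Vegfc-deficient, stood at 4565 CPM, so its label is in doubt, and values without it are given for some results.

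The libraries held 10824989 to 26782728 counts each, so that a level of 3 counts equalled 0.101 to 0.363 CPM. The smallest count of any of the 10 genes in any library was 32, for Tyro3 in M149. Naive hearts had Xist at 0.624 to 11.8 CPM and 4 Y-linked genes summing to 152 to 195 CPM, whereas MI hearts had Xist at 188 to 403 CPM and the Y-linked sum at no more than 1.84 CPM. By these genes all naive mice read as male and all MI mice as female. MI and sex cannot be told apart in any comparison of MI with naive hearts. The summed cardiomyocyte markers, 8 genes, were at 64090 to 90980 CPM in naive and 2422 to 24610 CPM in MI hearts. Summed fibroblast markers, 6 genes, were at 1914 to 2909 and 21060 to 33420 CPM, and summed macrophage markers, 8 genes, at 537 to 2495 and 1572 to 3304 CPM. The macrophage sum of 2495 CPM was that of M149, and the other naive libraries were at 537 to 1310 CPM, below every MI library. Of the 8 macrophage markers, 3 were higher after MI in control and 2 in Vegfc-deficient hearts at an adjusted p under 0.05. Over all genes tested those shares were 26.3% and 30.0%. Summed markers of resident macrophages, 5 genes, were at 317 to 403 CPM in naive and 97.0 to 143 CPM in MI hearts. The MI libraries came from infarct tissue, in which fewer cells of a type and less RNA per cell cannot be told apart.

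Apoptotic cells expose phosphatidylserine on their outer surface, and phagocytes recognise it directly or through a soluble bridge. The TAM receptors, Tyro3, Axl and Mertk, are receptor tyrosine kinases that bind Gas6 and protein S (Pros1), which in turn bind phosphatidylserine. Mfge8 bridges phosphatidylserine to integrins, and Stab1, Cd36, Lrp1 and Msr1 are scavenger or endocytic receptors that take up apoptotic cells along with other ligands. Several of these genes also act outside phagocytes: Cd36 carries fatty acids into cardiomyocytes and endothelial cells, and Axl, Gas6 and Lrp1 are made by fibroblasts and vascular cells.

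Levels of different genes were compared only per length, as CPM per kilobase of exon. Exon length was that of all annotated exons of a gene together, overlaps counted once, and not of the transcripts present. In naive control hearts Cd36 stood highest at 749 ± 11.6 (SD, n = 2), followed by Gas6 at 112.5 ± 0.889, Axl at 45.7 ± 4.34, Mfge8 at 35.2 ± 1.65 and Pros1 at 22.6 ± 0.619. Lrp1, Stab1, Mertk and Msr1 lay between 5.10 and 11.8, and Tyro3 was lowest at 0.537 ± 0.0675. No neighbours in this order had overlapping libraries, with only 2 libraries to judge by. In MI control hearts Gas6 came first at 258 ± 32.8 (SD, n = 3) and Cd36 second at 136 ± 56.5, with no overlap between them. Axl at 66.3 ± 5.20 and Mfge8 at 64.1 ± 26.7 overlapped, and the libraries of each neighbouring pair from Pros1 at 28.2 ± 3.37 through Msr1, Lrp1 and Stab1 down to Mertk at 12.7 ± 2.97 overlapped too. Tyro3 remained below every other member at 2.66 ± 0.944 in the same group. In MI Vegfc-deficient hearts the Gas6 libraries, at 236 ± 25.5 (SD, n = 3), overlapped those of Cd36 at 154 ± 65.2.

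**Figure D1:**
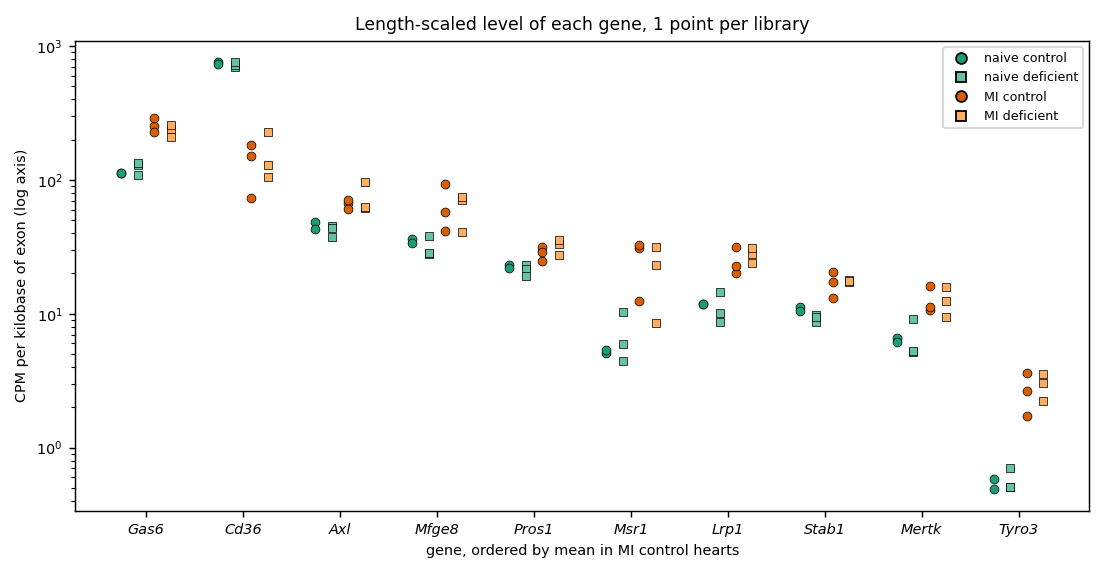
CPM per kilobase of exon (log axis) of each gene, with 1 point per library and colours and shapes for the 4 groups. Cd36 was the highest gene in naive hearts, Gas6 had the highest mean in both MI groups, and Tyro3 was the lowest gene throughout.

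The make-up of the TAM receptors was also taken per length within each library. Axl accounted for 75.5% to 89.2% of the summed TAM receptor level in all 11 libraries, Mertk for 8.77% to 20.04% and Tyro3 for 0.875% to 4.49%. The Tyro3 share was 0.875% to 1.37% in the 5 naive libraries and 2.06% to 4.49% in the 6 MI libraries, without overlap, whereas the Axl and Mertk shares overlapped between naive and MI hearts. The summed TAM receptor level was 47.2 to 55.9 CPM per kilobase in naive and 77.9 to 108 in MI hearts. Per length, Gas6 exceeded Pros1 by 4.74 to 7.03 times in naive libraries and by 6.22 to 10.2 times in MI libraries, and these ranges overlapped.

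Sequence before the transcription start was examined because 9 of the 10 genes had higher estimates after MI, to describe the letters they share there. RefSeq windows of GRCm38.p6, 250 bases each, were on file for 9 of the 10 genes, the exception being Msr1. Both strands were searched for the AP-1 motif TGACTCA, the PU.1 core GAGGAA and the direct repeat bound by LXR. No match overlapped another. The PU.1 core occurred in 3 of 9 windows, those of Axl, Mfge8 and Stab1, and in 23.3% of all 32851 windows of this length. The AP-1 motif and the LXR repeat, present in 4.46% and 0.0152% of all windows, were not among the letters of the 9. The 3 windows with a match are shown with that of Cd36, the gene that fell after MI, whose GC content of 43.2% was the lowest of the 9 (the others, 54.8% to 73.2%). Capitals mark the PU.1 core or its reverse complement, each sequence is written 5′ to 3′ on the gene's strand, the minus strand in all 4, and the last base lies next to the RefSeq start. The windows are chr7:25788734-25788983 for Axl, chr7:79149061-79149310 for Mfge8, chr14:31168642-31168891 for Stab1 and chr5:17835897-17836146 for Cd36.
Axl: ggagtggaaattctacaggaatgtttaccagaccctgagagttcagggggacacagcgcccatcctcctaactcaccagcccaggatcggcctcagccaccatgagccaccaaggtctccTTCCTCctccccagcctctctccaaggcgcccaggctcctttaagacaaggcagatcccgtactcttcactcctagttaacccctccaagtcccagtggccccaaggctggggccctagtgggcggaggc
Mfge8: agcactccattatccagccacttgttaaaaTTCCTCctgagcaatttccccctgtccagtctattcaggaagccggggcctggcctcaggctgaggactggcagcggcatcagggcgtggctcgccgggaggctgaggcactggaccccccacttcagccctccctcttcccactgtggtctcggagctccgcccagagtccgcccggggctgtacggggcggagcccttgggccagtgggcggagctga
Stab1: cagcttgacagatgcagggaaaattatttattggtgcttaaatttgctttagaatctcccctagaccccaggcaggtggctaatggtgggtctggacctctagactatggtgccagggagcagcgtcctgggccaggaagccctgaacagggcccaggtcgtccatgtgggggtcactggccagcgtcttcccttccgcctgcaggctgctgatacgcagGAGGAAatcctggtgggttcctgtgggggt
Cd36: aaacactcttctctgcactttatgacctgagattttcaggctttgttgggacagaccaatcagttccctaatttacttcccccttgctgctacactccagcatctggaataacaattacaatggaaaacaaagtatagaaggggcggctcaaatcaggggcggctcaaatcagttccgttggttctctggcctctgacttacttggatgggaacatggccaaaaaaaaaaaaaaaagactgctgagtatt
The match began 130 bases before the start in Axl, 220 in Mfge8 and 30 in Stab1. The Cd36 window lies inside the span of the gene in the GENCODE annotation, whose longer transcripts start further upstream. The Tyro3 window, chr2:119799264-119799513, also lies inside the span of its gene.

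The first question was how these genes differed between infarcted and naive hearts of each genotype. In control hearts 6 of the 10 rose and 1 fell at an adjusted p under 0.05, where 26.3% of all genes tested were called higher and 24.1% lower, 50.4% in all. In Vegfc-deficient hearts 9 rose and 1 fell, where 30.0% of all genes were called higher and 27.7% lower, 57.6% in all. Tyro3, Mertk, Gas6, Stab1, Lrp1 and Msr1 rose in both genotypes and Cd36 fell in both, whereas Axl, Pros1 and Mfge8 passed the test in Vegfc-deficient hearts alone. The median log2 fold change of the 10 genes was 0.93 in control and 0.94 in Vegfc-deficient hearts, beside 0.13 and 0.10 over all genes tested. All 6 MI libraries lay above all 5 naive libraries for 8 members, as for 24.5% of all genes, and below them for Cd36, as for 24.2% of all genes. The tests were edgeR's quasi-likelihood tests in 1 fit of all 11 libraries, with Benjamini-Hochberg adjustment over all genes. Without naive control M44, or without M45, 3 members were called in control hearts in place of 7, and 9 without MI Vegfc-deficient M35, a library of neither group compared that enters the same fit. Without M149, 10 of 10 were still called in Vegfc-deficient hearts, and without M900 the count was 7.

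**Figure D2:**
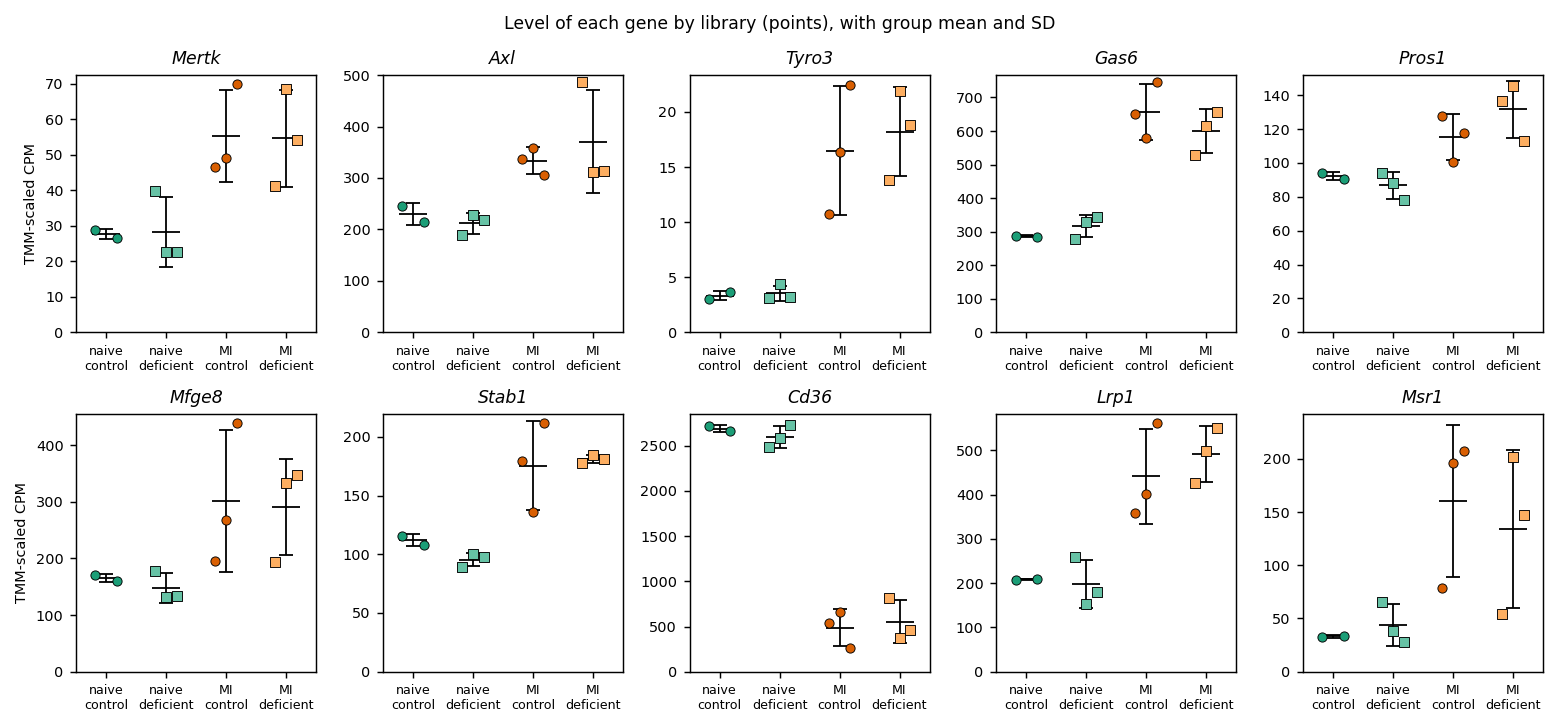
TMM-scaled CPM of each gene in every library (points, 4 groups on the x axis), with the group mean and SD (bars). The MI libraries lie above all naive libraries in 8 panels and below them in that of Cd36, and in the Msr1 panel M35 at 54.3 CPM lies below naive M149 at 65.7 CPM.

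Among the TAM receptors, Tyro3 had the largest rise. Tyro3 (ENSMUSG00000027298, GRCm38 chromosome 2 from 119797733 to 119818104) was at 3.03 and 3.62 CPM in naive control hearts and 10.7, 16.3 and 22.4 CPM in MI control hearts. It was at 3.14, 4.36 and 3.17 CPM in naive Vegfc-deficient hearts and 13.9, 21.9 and 18.8 CPM in MI Vegfc-deficient hearts. The lowest MI library exceeded the highest naive library by 2.46 times. The rise was 4.95-fold in control hearts (log2 fold change 2.31, standard error 0.35, adjusted p = 6.55e-04) and 5.15-fold in Vegfc-deficient hearts (2.36, standard error 0.30, adjusted p = 1.48e-04). The call held in both genotypes whichever library was left out.

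Mertk, the TAM receptor best known from macrophages (ENSMUSG00000014361, chromosome 2 from 128698956 to 128802894), was at 28.7 and 26.6 CPM in naive control hearts and 46.6, 49.1 and 70.0 CPM after MI. The Vegfc-deficient libraries had 39.7, 22.5 and 22.7 CPM in the naive state and 41.2, 68.5 and 54.1 CPM after MI. Groups did not overlap, but naive M149 and MI M35 came within 1.04 times of each other. The rise was 2.00-fold in control (log2 0.997, standard error 0.30, adjusted p = 0.0189) and 1.93-fold in Vegfc-deficient hearts (0.95, standard error 0.26, adjusted p = 0.0110). The first call was lost without M44, M45 or M40 (adjusted p = 0.0802, 0.109 and 0.0561) and the second without M900 (adjusted p = 0.0543), while the log2 value in Vegfc-deficient hearts was 1.27 without M149.

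Axl (ENSMUSG00000002602, chromosome 7 from 25757273 to 25788705) was at 246 and 215 CPM in naive control hearts, with 337, 358 and 306 CPM after MI. Its Vegfc-deficient libraries were at 189, 228 and 219 CPM in the naive state and 486, 311 and 314 CPM after MI. All 6 MI libraries stood above the naive ones, and M35 stood apart from the other 5 MI libraries. Axl rose 1.75-fold in Vegfc-deficient hearts (log2 0.81, standard error 0.19, adjusted p = 0.00522, with 0.56 without M35 and 0.73 without M149). In control hearts its log2 fold change of 0.54 (standard error 0.22) had an adjusted p of 0.0627, which passed the threshold without M35 (adjusted p = 0.0168).

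Of the bridging proteins, Gas6, the ligand of all TAM receptors, rose in both genotypes. Gas6 (ENSMUSG00000031451, chromosome 8 from 13465374 to 13494490) was at 288 and 285 CPM in naive control and 649, 578 and 745 CPM in MI control hearts. In the Vegfc-deficient groups Gas6 was at 278, 330 and 343 CPM and, after MI, 529, 616 and 657 CPM. Naive and MI libraries were separated by a factor of 1.55, and Gas6 had the smallest spread among the 6 MI libraries of all 10 genes (highest over lowest 1.41). The rise was 2.29-fold in control (log2 1.20, standard error 0.19, adjusted p = 9.12e-04) and 1.90-fold in Vegfc-deficient hearts (0.92, standard error 0.17, adjusted p = 0.00107), and both calls held whichever library was left out. The span of Gas6 overlaps that of Tmem255b on the other strand, and whether the counting used strand is not given in the sources used here.

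Pros1 encodes protein S, the other TAM ligand and a plasma anticoagulant (ENSMUSG00000022912, chromosome 16 from 62854307 to 62929346). It was at 94.0 and 90.4 CPM in naive control hearts and 128, 101 and 118 CPM in MI control hearts. In Vegfc-deficient hearts it was at 94.1, 87.9 and 78.2 CPM and, after MI, 137, 146 and 113 CPM. The MI libraries lay above the naive ones by a gap of 1.07 times. Pros1 rose 1.52-fold in Vegfc-deficient hearts (log2 0.60, standard error 0.14, adjusted p = 0.00453), and its log2 fold change in control hearts was 0.32 (standard error 0.16, adjusted p = 0.113). The difference between these effects was 0.28 (standard error 0.21, adjusted p = 0.721 in edgeR's interaction test).

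Mfge8, which links phosphatidylserine to integrins αv (ENSMUSG00000030605, chromosome 7 from 79133768 to 79149060), was at 171 and 160 CPM in naive control hearts and 195, 268 and 439 CPM in MI control hearts. Among Vegfc-deficient hearts the values were 179, 131 and 134 CPM and, after MI, 193, 333 and 347 CPM. M006 and M35 lay close to the naive range, and the other 4 MI libraries well above it. Mfge8 rose 1.97-fold in Vegfc-deficient hearts (log2 0.98, standard error 0.31, adjusted p = 0.0198). In control hearts the log2 fold change was 0.86 (standard error 0.35, adjusted p = 0.0613) and 0.49 without M40. It passed the threshold without M006 (log2 1.09, adjusted p = 0.0222) or without M35 (log2 0.86, adjusted p = 0.0388). The call in Vegfc-deficient hearts was lost without M150, M34, M900 or M913 (adjusted p = 0.0692, 0.064, 0.0681 and 0.0802).

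Cd36, a class B scavenger receptor and fatty acid transporter, was the only member that fell. Cd36 (ENSMUSG00000002944, chromosome 5 from 17781690 to 17888801) was at 2718 and 2659 CPM in naive control hearts and 543, 657 and 263 CPM in MI control hearts. Vegfc-deficient hearts had 2488, 2585 and 2726 CPM and, after MI, 819, 377 and 466 CPM. The 5 naive libraries differed by 1.10 times at most and the 6 MI libraries by 3.12 times, and the highest MI library was 3.04 times below the lowest naive one. The log2 fold change was -2.46 in control (standard error 0.40, adjusted p = 9.99e-04) and -2.23 in Vegfc-deficient hearts (standard error 0.38, adjusted p = 7.27e-04), or 5.52-fold and 4.69-fold lower. Both calls held whichever library was left out.

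Msr1, the class A scavenger receptor of macrophages, was the most variable member (ENSMUSG00000025044, chromosome 8 from 39581685 to 39642673). It was at 32.4 and 33.98 CPM in naive control hearts and 78.5, 196 and 207 CPM in MI control hearts. In Vegfc-deficient hearts it was at 65.7, 38.005 and 28.2 CPM and, after MI, 54.3, 201 and 147 CPM. The Vegfc-deficient groups overlapped, since MI M35 lay below naive M149, whereas the control groups did not. Msr1 rose 4.84-fold in control (log2 2.28, standard error 0.60, adjusted p = 0.0101) and 3.06-fold in Vegfc-deficient hearts (1.61, standard error 0.50, adjusted p = 0.0189, and 2.02 without M149). The first call was lost without M44 or M45 (adjusted p = 0.0692 and 0.0662) and the second without M150, M34, M900 or M913 (adjusted p = 0.0653, 0.0689, 0.0885 and 0.0568).

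Lrp1, an endocytic receptor that takes up calreticulin-bearing apoptotic cells (ENSMUSG00000040249, chromosome 10 from 127538161 to 127621148), was at 208 and 209 CPM in naive control hearts and 359, 402 and 561 CPM in MI control hearts. Vegfc-deficient hearts had 258, 153 and 181 CPM and, after MI, 426, 497 and 551 CPM. Every MI library exceeded every naive one, by at least 1.39 times. Lrp1 rose 2.11-fold in control (log2 1.08, standard error 0.27, adjusted p = 0.00738) and 2.49-fold in Vegfc-deficient hearts (1.31, standard error 0.23, adjusted p = 9.71e-04). The first call was lost without M44 or M45 (adjusted p = 0.0537 and 0.0542). Without M149 the log2 value in Vegfc-deficient hearts was 1.55.

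Stab1 encodes stabilin 1, a phosphatidylserine receptor of macrophages and some endothelia (ENSMUSG00000042286, chromosome 14 from 31139013 to 31168641). It was at 116 and 108 CPM in naive control hearts and 179, 136 and 211 CPM in MI control hearts. In Vegfc-deficient hearts it was at 89.0, 100 and 97.2 CPM and, after MI, 178, 185 and 182 CPM. The MI libraries lay above the naive ones, with M38 lowest. The rise was 1.57-fold in control (log2 0.65, standard error 0.18, adjusted p = 0.0121) and 1.90-fold in Vegfc-deficient hearts (0.93, standard error 0.16, adjusted p = 7.28e-04). The first call was lost without M44 or M45 (adjusted p = 0.0572 and 0.0908). The span of Stab1 overlaps that of Nt5dc2 on the other strand.

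**Figure D3:**
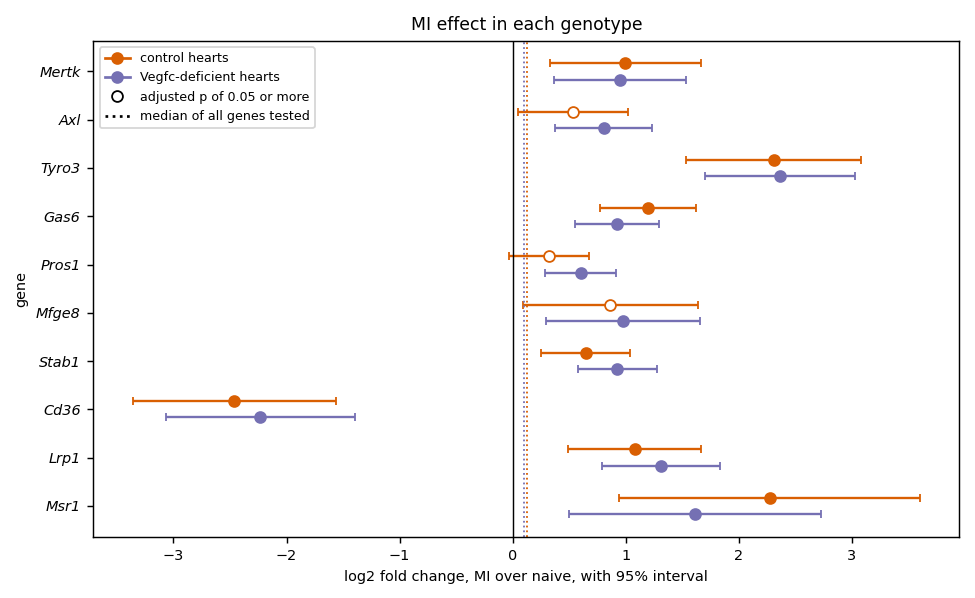
Log2 fold change of MI over naive hearts for each gene (points) with 95% intervals, in control and Vegfc-deficient hearts. Filled points had an adjusted p under 0.05 and dotted lines mark the median of all genes tested, 0.13 and 0.10. The estimates of 9 genes lie to the right of 0 and those of Cd36 to the left.

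The second question was whether loss of Vegfc in myeloid cells changed these genes. Among MI hearts 0 of the 10 differed by genotype in edgeR's quasi-likelihood test, where 0.0% of all genes were called, and 0 members had an unadjusted p under 0.05, beside 1173 of all genes (7.94%). DESeq2's Wald test called 51 of all genes and limma-voom 0, with 0 members in either. Libraries of the genotypes overlapped for all 10 members. They were separated for 12.1% of all genes, so 0 of 10 is close to the share over all genes. Log2 fold changes ran from -0.26 for Msr1 (95% interval -1.34 to 0.82) to 0.19 for Pros1 (95% interval -0.12 to 0.50), with adjusted p between 0.763 and 0.992. The median of the 10 was 0.095, beside -0.01 over all genes. For Mertk the means were 54.6 ± 13.6 CPM (SD, n = 3) in Vegfc-deficient and 55.2 ± 12.9 CPM (SD, n = 3) in control hearts, and the log2 difference was -0.02 (95% interval -0.59 to 0.55). The interval of the Stab1 difference, -0.30 to 0.39, allowed a change of up to 1.31-fold, while that of Cd36, -0.62 to 0.99, allowed up to 1.98-fold. The sign of 7 members turned when 1 library was left out, those of Mertk, Axl, Tyro3, Mfge8, Stab1, Cd36 and Msr1.

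In naive hearts the same edgeR test called 0 of the 10 members and 0.0% of all genes, while DESeq2 called 14 genes and limma-voom 6, with 0 members in either. At an unadjusted p under 0.05 there were 0 members, beside 499 of all genes (3.38%). Stab1 was the one member whose genotypes were separated, with the 3 Vegfc-deficient libraries at 89.0 to 100 CPM below the control libraries at 108 and 116 CPM, as were 22.4% of all genes. Its log2 fold change was -0.23 (95% interval -0.62 to 0.15, unadjusted p = 0.212 and adjusted p = 1 from edgeR). Msr1 had the largest estimate, 0.41 (95% interval -0.84 to 1.65), which was -0.01 without M149. Mertk and Lrp1, at 0.03 and -0.08 with all libraries, were at -0.29 and -0.32 without M149.

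The response to MI was then compared between the genotypes with the interaction term. In edgeR's test 0 members and 0.0% of all genes passed, and 0 members and 1226 of all genes (8.30%) had an unadjusted p under 0.05. DESeq2 called 55 genes and limma-voom 0, with 0 members in either. With all libraries the largest estimate was that of Msr1, -0.66 (95% interval -2.31 to 0.98, adjusted p = 0.833), followed by Pros1 at 0.28, Stab1 at 0.28 and Gas6 at -0.27. The Msr1 estimate ranged from -1.07 without M900 to -0.25 without M149. Without M149 the order changed, with Lrp1 at 0.47 (0.23 with all libraries), Gas6 at -0.36 and Pros1 at 0.34 in front. The Mertk estimate, -0.05 with all libraries, was 0.28 without M149. Axl, Pros1 and Mfge8, which passed the test for MI in Vegfc-deficient hearts alone, had interaction estimates of 0.27, 0.28 and 0.11 (adjusted p = 0.827, 0.721 and 0.961 from edgeR). Without M35 the Axl estimate was 0.024.

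**Figure D4:**
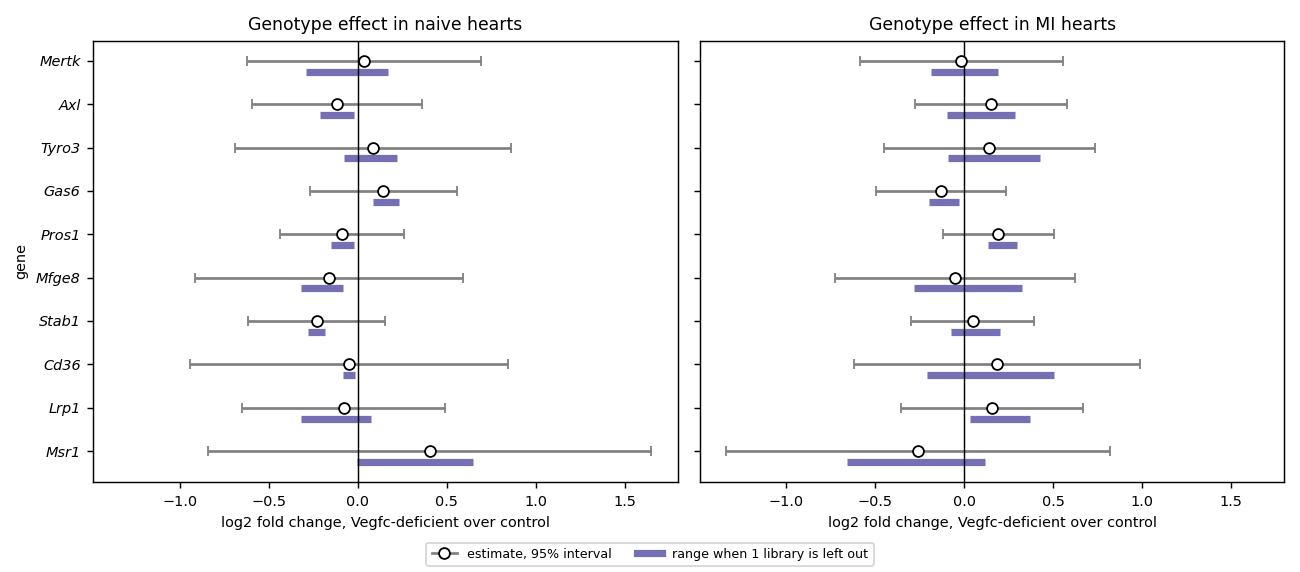
Log2 fold change of Vegfc-deficient over control hearts for each gene in naive (left) and MI hearts (right), with 95% intervals (grey) and the range of estimates with 1 library omitted (purple bars). Every 95% interval spans 0. The widest is -0.84 to 1.65 for Msr1 in naive hearts, and the narrowest -0.12 to 0.50 for Pros1 in MI hearts.

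Several members varied widely among the 6 MI libraries, the highest exceeding the lowest by 3.82 times for Msr1, 3.12 for Cd36, 2.28 for Mfge8 and 2.09 for Tyro3. M40, from the control group, had the highest level of Mertk, Tyro3, Gas6, Mfge8, Stab1, Lrp1 and Msr1 and the lowest of Axl and Cd36. M35, from the Vegfc-deficient group, had the lowest level of Mertk, Gas6, Mfge8 and Msr1 and the highest of Axl and Cd36. The summed cardiomyocyte markers were lowest in M40, at 2422 CPM, and highest in M35, at 24610 CPM, against 5394 to 12310 CPM in the other 4. The summed macrophage markers were lowest in M35, at 1572 CPM, and at 1955 to 3304 CPM in the other 5. The part of these markers in the differences between MI libraries was not tested. Between pairs of members over the 6 MI libraries, Pearson's r of log2 CPM ran from -0.94 for Mertk and Cd36 to 0.92 for Tyro3 and Mfge8, as a description over libraries that share these composition differences.

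**Figure D5:**
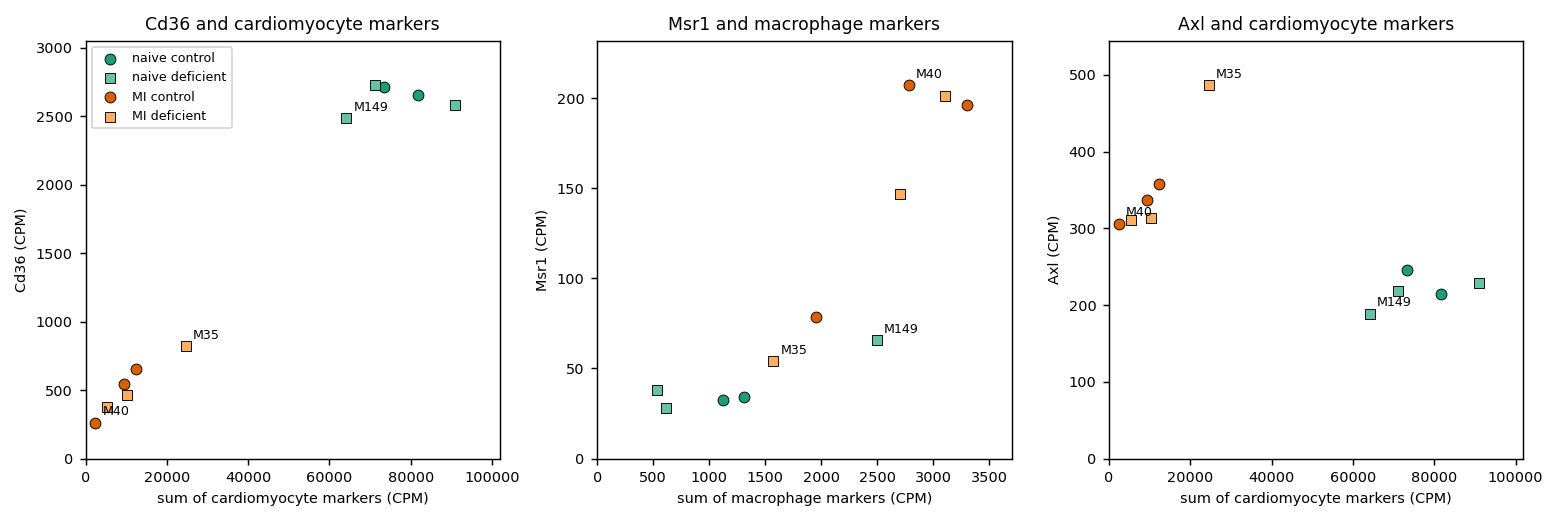
Level of Cd36, Msr1 and Axl (y axes, CPM) against the summed cardiomyocyte or macrophage markers (x axes, CPM), 1 point per library, with M35, M40 and M149 named. Among the MI libraries M40 has the lowest and M35 the highest Cd36, Axl and cardiomyocyte markers, and naive M149 has the highest Msr1 and macrophage markers of the naive libraries.

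Values were also set against the marker sums of the same library. Per 100 CPM of cardiomyocyte markers, Cd36 was at 2.84 to 3.88 CPM in naive and 3.33 to 10.85 CPM in MI libraries, so these ratios overlapped and reached higher values after MI. Per 100 CPM of blood endothelial markers it was at 38.03 to 45.5 CPM in naive and 18.8 to 44.5 CPM in MI libraries. That sum holds 7 genes and includes Fabp4, itself a fatty acid binding gene. Fabp4 made up most of the sum in every naive library and a smaller share in the MI libraries. After MI, 2 of the 7 were called lower in control hearts, and 2 lower and 1 higher in Vegfc-deficient hearts. The ratio of Cd36 to Fabp4 alone was 0.423 to 0.542 in naive and 0.261 to 0.773 in MI libraries. Per 100 CPM of macrophage markers, Cd36 was at 99.7 to 481 CPM in naive and 9.44 to 52.1 CPM in MI libraries, without overlap. The other 9 members overlapped on that scale, as for Mertk at 1.59 to 4.19 and 1.49 to 2.62 CPM, Msr1 at 2.59 to 7.07 and 3.45 to 7.44 CPM, and Tyro3 at 0.126 to 0.811 and 0.494 to 0.882 CPM. Macrophage markers varied by 4.64 times among naive libraries, with M149 highest, and their part in the members' changes was not tested.

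The genes that act beside these receptors were described from 8 further lists of 84 genes, of which 81 were tested. In control hearts 33 rose and 6 fell after MI, with a median log2 fold change of 0.63, and in Vegfc-deficient hearts 47 rose and 6 fell, with a median of 0.80. Over all genes tested, 26.3% rose and 24.1% fell in control hearts (median 0.13) and 30.0% rose and 27.7% fell in Vegfc-deficient hearts (median 0.10), and the counts of each list below are to be read beside these shares. Without M44 or M45 the calls in control hearts were 22 and 21 in place of 39, and with scaling to library totals they were 60. Between the genotypes and for the interaction edgeR called 0 of the 81. Of 25 genes of these lists named here as called in both genotypes, 9 lost the call in control hearts when 1 library was left out (Adam17, C1qb, Cd300lf, Lamp2, Map1lc3b, Siglecg, Tub, Uvrag and Was) and 8 in Vegfc-deficient hearts (Adam17, C1qb, Cd24a, Cd300lf, Lamp2, Map1lc3b, Uvrag and Was). Under the other alternatives 2 lost it in control hearts (Cd300lf and Map1lc3b) and 6 in Vegfc-deficient hearts (Adam17, Cd24a, Cd300lf, Lamp2, Map1lc3b and Pparg).

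Among 15 other uptake receptors tested, 7 rose and 1 fell in control and 9 rose and 1 fell in Vegfc-deficient hearts, with medians of 0.89 and 1.32. Timd4, the phosphatidylserine receptor of resident macrophages, fell (log2 -2.25 and -2.33 in control and Vegfc-deficient hearts), from means of 18.5 and 25.8 CPM to 3.88 and 5.23 CPM. The integrin genes Itgb5 (1.90 and 1.98) and Itgb3 (1.74 and 2.68), whose products pair with integrin αv in the receptors for Mfge8, rose, as did Cd300lf (2.44 and 2.10). Havcr1 and Adgrb1 were below the filter. Of 11 other bridging and opsonin genes, 6 and 9 rose and 0 fell (medians 1.35 and 1.09). They were led by Thbs1, which bridges to Cd36, at log2 5.39 and 4.62 (means of 17.1 and 26.3 CPM in naive and 715 and 646 CPM in MI hearts), with Ptx3 at 3.74 and 3.29, Tub at 2.63 and 2.93 and the complement gene C1qb at 1.70 and 1.17. Tub was near the level of 3 counts in naive hearts (means of 0.179 and 0.147 CPM) and had at most 35 counts in any library.

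Of 14 genes of the engulfment machinery 8 and 10 rose and 0 fell (medians 0.55 and 0.85), among them Vav1 (log2 2.02 and 1.74), Abca1 (1.81 and 1.68), Gulp1 (1.86 and 1.22) and Was (1.33 and 1.07). Of 14 genes of degradation and LC3-associated phagocytosis 2 rose and 1 fell in control and 4 rose and 2 fell in Vegfc-deficient hearts, with medians of 0.02 and 0.17, beside 50.4% and 57.6% of all genes called in either direction. Here Lamp2 (0.79 and 0.64) and Uvrag (0.53 and 0.38) rose, and Map1lc3b (-0.38 and -0.38) fell, although scaling to library totals turned the sign of Map1lc3b. Of 5 genes that restrain uptake, 2 rose in each genotype, Siglecg (2.68 and 3.60) and Cd24a (1.16 and 0.62), with medians of 1.16 and 0.88. Siglecg was near the level of 3 counts in naive hearts, at means of 0.360 and 0.141 CPM. Cd47 had log2 fold changes of 0.22 and 0.13 (adjusted p = 0.349 and 0.510 from edgeR) and was named after its values were seen.

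Of 11 genes for the signals by which dying cells attract phagocytes or expose phosphatidylserine, and for their receptors, 6 rose and 2 fell in control and 8 rose and 1 fell in Vegfc-deficient hearts (medians 0.68 and 1.11). Gpr132 (log2 2.79 and 2.42), the fractalkine receptor gene Cx3cr1 (2.69 and 2.04), its ligand gene Cx3cl1 (2.31 and 2.21) and the channel gene Panx1 (2.10 and 2.12) were the highest of those called in both genotypes. Of 9 genes of the nuclear receptor response tested, 1 rose and 2 fell in control and 4 rose and 2 fell in Vegfc-deficient hearts (medians 0.29 and 0.41). The lipid-sensing receptors Pparg (-1.54 and -1.16) and Nr1h3 (-1.06 and -1.22) fell and Ucp2 (1.81 and 1.75) rose, and Il10 was below the filter. Of the proteases that shed Mertk and Axl, Adam17 rose (0.63 and 0.55), and Adam10 had estimates of 0.72 and 0.64 (adjusted p = 0.0666 and 0.0572 from edgeR).

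The genes whose levels most resembled each member over the 6 MI libraries were sought among 9944 genes with a mean of at least 10 CPM there. Cd36 was most like Cox5a, Pln and Hspa9 (Pearson's r of log2 CPM 0.9986, 0.9972 and 0.9966, n = 6 libraries), of which Pln encodes phospholamban, a calcium pump regulator of cardiomyocytes. Msr1 was most like Tubb5, 1700017B05Rik and Lig1 (r of 0.9942 to 0.9959), and Tyro3 most like Plaur, Dnmt1 and B4galt5 (0.9891 to 0.9913). Mertk was most like Cyb5b, Synpo and Hic1 (0.9898 to 0.9927), Axl like Fbxo3, Prdx6 and Parm1 (0.9886 to 0.9960) and Gas6 like Mxd4, Rab34 and Ap5z1 (0.9868 to 0.9946). For Pros1, Mfge8, Stab1 and Lrp1 the first genes were Zmynd8, Cdc42bpg, Sort1 and Vat1 (0.9888, 0.9919, 0.9936 and 0.9891). These values describe 6 libraries that share the differences in cell markers given above. Each gene was picked as among the highest of 9944 over only 6 libraries. How high r would reach by chance in such a search was not tested.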

How the data were processed

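The authors deposited, per the labels, read counts per Ensembl gene, made from stranded mRNA libraries with cutadapt 1.13, STAR and HTSeq 0.6.1p1 on mm10, with DESeq2 1.14.1 also named in the submitters' processing notes. The annotation and the strand setting of the counting are not given in the sources used here. Each of the 11 count files held 25006 genes, and no mitochondrial gene had a count. Symbols, coordinates and exon lengths came from GENCODE M21 (GRCm38), which held 24991 of them. Here counts were filtered by group with edgeR's filterByExpr (14779 genes kept), scaled by TMM and fitted with glmQLFit in 1 model of 11 libraries (R 4.3.3, edgeR 4.0.16). Group contrasts and the interaction were tested with glmQLFTest, on libraries of separate mice, and p-values were adjusted by the Benjamini-Hochberg method over every gene tested (threshold 0.05). Standard errors were the log2 fold change over the square root of F, and 95% intervals used the t distribution of the fit. The 10 genes, the further lists and the marker lists were chosen with earlier results of these data known. Text names the 10 genes, label checks, and, from each further list, genes below the filter, up to 4 with the largest mean change among those called in both genotypes, and any called between genotypes. For likeness, CPM was put on a log2 scale with 2 prior counts. Alternatives were DESeq2 size factors, library totals, the DESeq2 1.42.0 Wald test, limma-voom 3.58.1 with quality weights, no filter, a mean of at least 1 CPM, the compared groups alone, a threshold of 0.01, and leaving out each library. Total counts set the precision, and floors and counts cover counting error only. No pair of libraries within a group agreed within counting noise.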

Additional observations from a re-analysis of the deposited data

How the results depend on the processing

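In both comparisons of MI with naive hearts, 9 members had higher and Cd36 lower estimates under every alternative and without any library. In control hearts 4798 genes and 4 members were called at an adjusted p under 0.01, and leaving out 1 library gave 4574 to 7636 genes and 3 to 9 members (7450 and 7 as reported). With scaling to library totals the median of all genes was 0.57 in control and 0.59 in Vegfc-deficient hearts, and 76.2% and 75.5% of calls were higher, beside 52.1% and 52.0%. That scaling turned Map1lc3b to 0.064 in control and 0.12 in Vegfc-deficient hearts. It called all 10 members in control hearts, adding Axl, Mfge8 and Pros1 (adjusted p = 0.00351, 0.0118 and 0.00464). Stab1 in control hearts had adjusted p = 0.0528 with the compared groups alone. Limma-voom also called Axl and Mfge8 there (adjusted p = 0.0223 and 0.0329), DESeq2 Mfge8 (0.0446) and the compared groups alone Axl (0.0473).

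Between genotypes in MI hearts the genes called were 51 by DESeq2 and 0 to 1 without 1 library. In naive hearts they were 14 by DESeq2, 6 by limma-voom, 2 with the compared groups alone, and 0 to 17 without 1 library (17 without M149). For the interaction they were 55 by DESeq2 and 0 to 1 without 1 library. Limma-voom turned the MI genotype estimates of Mertk to 0.062, Mfge8 to 0.21 and Msr1 to 0.075, the naive one of Mertk to -0.13 and its interaction to 0.20, and library totals turned the naive one of Mertk to -0.00065. None of these estimates passed the test in either fit, and the cause was not tested.

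Leaving out 1 library in MI hearts gave genotype estimates of -0.19 to 0.19 for Mertk, -0.095 to 0.29 for Axl, -0.090 to 0.43 for Tyro3, -0.28 to 0.33 for Mfge8, -0.077 to 0.20 for Stab1, -0.21 to 0.50 for Cd36 and -0.66 to 0.12 for Msr1. In naive hearts they were -0.29 to 0.17 for Mertk, -0.077 to 0.22 for Tyro3, -0.32 to 0.073 for Lrp1 and -0.0067 to 0.64 for Msr1. Interaction estimates were -0.22 to 0.28 for Mertk, -0.14 to 0.34 for Tyro3, -0.094 to 0.49 for Mfge8 and -0.16 to 0.56 for Cd36. Companion gene lists and their single-gene estimates were re-run under the same settings after the data had been seen. The genotype comparisons rest on groups of 2 and 3 mice, and the smallest count of a member was 32.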
